A study of Canis lupus familiaris with 10 samples.

Results

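The interferon regulatory factors (IRFs) are a family of transcription factors, and the genes of its members were compared between early and late canine cutaneous histiocytoma (CCH). Members were the gene rows of the nCounter Canine IO Panel whose symbol is IRF followed by 1 digit. This rule found 6 of 800 gene rows, namely IRF1, IRF2, IRF3, IRF4, IRF5 and IRF8, and all 6 were among the 761 genes that passed the filter on low values (a mean of at least 20 normalized counts over all samples). By symbol they matched the RefSeq gene numbers 100855872, 475633, 476412, 100684399, 482264 and 489673, in that order. Other members of the family were not analysed here.

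All IRFs bind DNA through a related domain and recognise interferon-stimulated response elements or, together with partner factors, composite elements of similar sequence. IRF3 and IRF5 are held inactive in the cytoplasm until sensors of nucleic acids or Toll-like receptors lead to their phosphorylation, whereas IRF1, IRF2, IRF4 and IRF8 act mainly through the amount of protein made. The family is known in immune tissue for the induction of interferons, for antigen presentation, and for the development of dendritic cells, B cells, plasma cells and effector T cells.

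CCH is a benign skin tumour of dogs of Langerhans cell lineage that usually regresses. Each sample was formalin-fixed, paraffin-embedded (FFPE) tumour tissue from a different dog. In the Cockerell and Slauson scheme 5 tumours were of group 1 (early CCH) and 5 of group 3, in which lymphocytes are abundant (late CCH). The titles of all late samples, and of no early sample, add the term lymphocyte enriched. The labels give no treatment, and the dogs were of various breeds, none of which is named in both stages. In early CCH the ages given for 4 of 5 dogs ran from 0.5 to 5 years, and 3 dogs were male (2 neutered), 1 was female and 1 had no sex given. In late CCH ages ran from 1.5 to 9 years, with 4 male dogs (1 neutered) and 1 female. All early tumours were run on one cartridge and all late tumours on another, so that stage and cartridge cannot be told apart.

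Whole-sample measures differed with stage as well. The barcode counts recovered from the deposited values summed to between 484696 and 823763 in early and between 945399 and 1253083 in late CCH. After normalization the summed gene values still separated the stages, at 980431 ± 97171 against 1176324 ± 19642, as did the ratio of the highest to the next positive control, at 2.13 ± 0.031 against 2.78 ± 0.053 (SD, n = 5 each, exact two-sided permutation p = 0.00794 for both). Background (the mean plus 2 SD of the negative control probes, on the scale of normalized counts) averaged 32.6 ± 6.37 in the early and 21.9 ± 2.99 in the late tumours (SD, n = 5 each). DV200, the percentage of RNA fragments longer than 200 nucleotides, was 68.5 ± 2.46 and 73.2 ± 2.09, respectively (SD, n = 5 each, exact two-sided permutation p = 0.0238 for background and for DV200). The DV200 of late 5 differs between the sample label, which was used, and the study's supplement. All IRF values lay well above background, with the lowest, IRF4 in early CCH, at 6.04 times that of its own sample. The smallest recovered count of a member was 129, also for IRF4, so that counting error alone gave an SD of at most 0.13 on the log2 scale.

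Of the 6 IRF genes, 4 were higher in late CCH past a Benjamini-Hochberg (BH) adjusted p of 0.05 in limma, namely IRF1, IRF8, IRF3 and IRF2, and 0 were higher in early CCH. Over all 761 tested genes, 35.7% passed this threshold, 27.3% as higher in late and 8.41% as higher in early CCH. The log2 fold change (log2FC) was taken as early minus late, so that negative values mean higher in late CCH, and its median was -0.65 over the 6 members and -0.18 over all tested genes. After the stricter Benjamini-Yekutieli (BY) adjustment 2 members passed, IRF1 and IRF3, against 12.7% of all genes. Only IRF1 also changed by at least 2-fold, against 11.2% of all genes. The paper, which used the nSolver Advanced Analysis in place of limma, reported no nCounter gene past BY and 2-fold between these stages. The reason for this difference was not tested. The stages did not overlap for 3 members, IRF1, IRF2 and IRF3, which were higher in every late than in every early tumour, as were 19.2% of all genes. The samples were bulk tissue, so that fewer cells of a type and less RNA per cell cannot be told apart in any of these values.

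**Figure D1:**
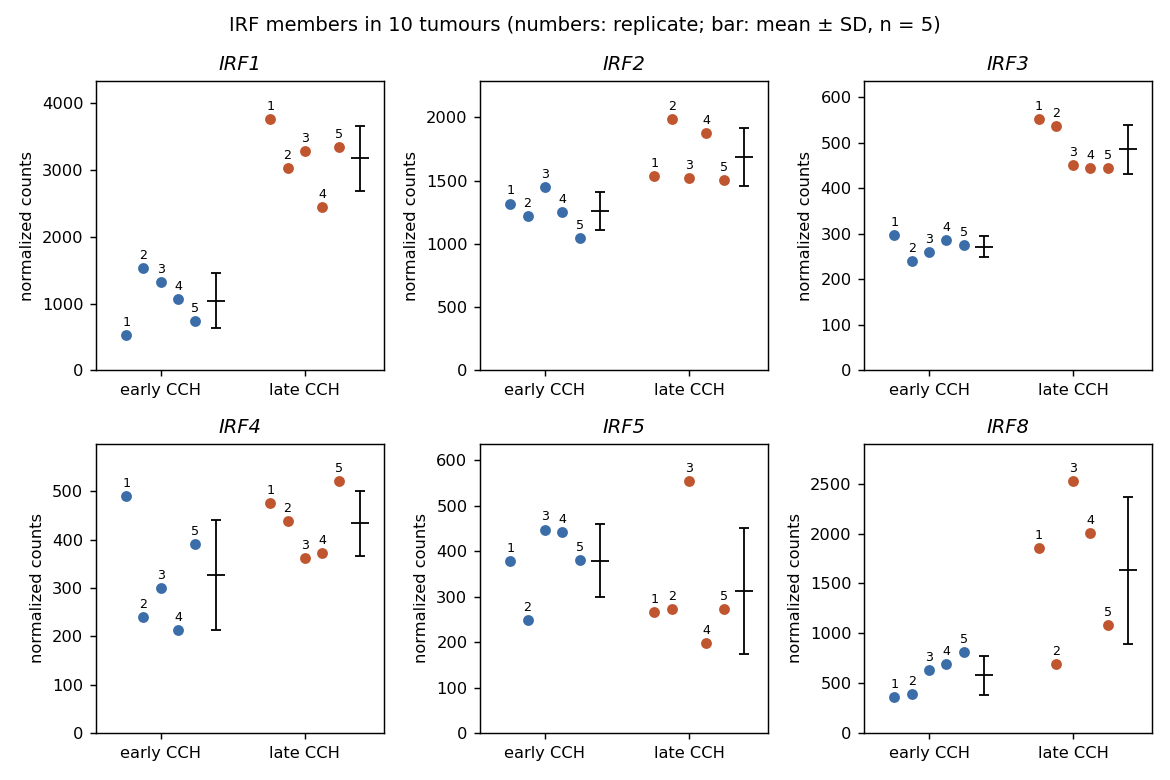
Normalized counts (linear axis from 0) of the 6 IRF genes in 5 early (blue) and 5 late (orange) CCH tumours. Each numbered point is a tumour and the bars give mean ± SD (n = 5). IRF1, IRF2 and IRF3 did not overlap between the stages, IRF8 overlapped through late 2, and IRF5 in late 3 stood above the other late tumours.

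IRF1 and IRF2 bind the same elements, IRF1 as an activator of interferon-stimulated and antigen presentation genes and IRF2 largely as its antagonist. The normalized counts of IRF1 in early tumours 1 to 5 were 528, 1532, 1329, 1067 and 735. In late tumours 1 to 5 they were 3770, 3033, 3291, 2453 and 3348. The lowest late tumour was therefore above the highest early one, and the early tumours were spread more widely on the log2 scale (SD 0.63 against 0.23). The early mean was 1038 ± 413 and the late mean 3179 ± 485 (SD, n = 5 each). IRF1 was thus 3.25-fold higher in late CCH (log2FC -1.70, SE 0.28, 95% confidence interval of the fold 2.11 to 5.02, limma BH adjusted p = 0.00224, BY adjusted p = 0.0161). Among all tested genes, 97 had a more negative log2FC than IRF1. Its BY call was lost without late 1 (BY adjusted p = 0.0540), whereas its BH call held without any single tumour.

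The normalized counts of IRF2 in early tumours 1 to 5 were 1318, 1220, 1452, 1254 and 1048. In late tumours 1 to 5 they were 1535, 1988, 1519, 1879 and 1500. The stages were separate but close, since early 3 lay just under late 5. With means of 1258 ± 147 (SD, n = 5) and 1684 ± 231 (SD, n = 5), IRF2 was 1.34-fold higher in late CCH (log2FC -0.42, SE 0.14, 95% confidence interval of the fold 1.07 to 1.66, limma BH adjusted p = 0.0422, BY adjusted p = 0.305). The call of IRF2 did not hold under any other scaling and held in 3 of 10 fits that left out a tumour. Scaling by the geometric mean of all genes gave IRF2 a log2FC of -0.028 and quantile normalization gave 0.00046.

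IRF3 and IRF5 act below innate sensors, IRF3 as an inducer of type I interferons downstream of the kinase TBK1 and IRF5 as an inducer of proinflammatory cytokines downstream of the adaptor MYD88. The normalized counts of IRF3 in early tumours 1 to 5 were 297, 239, 261, 287 and 275. In late tumours 1 to 5 they were 553, 536, 451, 444 and 445. No member varied less within a stage, with an SD pooled over the stages of 0.14 (log2) where the median of all tested genes was 0.46. Means were 272 ± 22.7 (SD, n = 5) and 486 ± 54.1 (SD, n = 5), and IRF3 was 1.78-fold higher in late CCH (log2FC -0.83, SE 0.14, 95% confidence interval of the fold 1.43 to 2.22, limma BH adjusted p = 0.00250, BY adjusted p = 0.0180). The BH call held without any single tumour, and the BY call was lost without early 5, late 1 or late 2 (largest BY adjusted p = 0.0631). Under geometric mean scaling (log2FC -0.44, limma BH adjusted p = 0.0744) and quantile normalization (log2FC -0.26, limma BH adjusted p = 0.295) IRF3 kept its direction and missed the threshold.

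IRF5 was the only member with a positive log2FC. Its normalized counts in early tumours 1 to 5 were 379, 249, 448, 441 and 381. In late tumours 1 to 5 they were 267, 272, 554, 199 and 273. Late 3 held the highest value of all 10 tumours, and the other 4 late tumours lay below 4 of the 5 early ones. The log2FC of IRF5 was 0.34 (SE 0.28, 95% confidence interval -0.28 to 0.96) and missed the threshold (limma BH adjusted p = 0.367). Without late 3 it was 0.57 and still missed it (limma BH adjusted p = 0.0685). Under quantile normalization IRF5 was higher in early CCH past the threshold (log2FC 0.91, limma BH adjusted p = 0.0323).

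IRF4 and IRF8 are the lymphoid and myeloid members that bind DNA with partners such as SPIB and BATF. IRF4 is needed for plasma cells and activated T cells, and IRF8 for the XCR1-bearing dendritic cell lineage, monocytes and germinal centre B cells. The normalized counts of IRF8 in early tumours 1 to 5 were 361, 388, 628, 695 and 811. In late tumours 1 to 5 they were 1850, 693, 2523, 2001 and 1083. The stages overlapped only through late 2, which lay below early 4 and early 5, and IRF8 had the largest SD pooled over the stages of the members (0.65). Means were 577 ± 196 (SD, n = 5) and 1630 ± 735 (SD, n = 5), and IRF8 was 2.69-fold higher in late CCH (log2FC -1.43, SE 0.38, 95% confidence interval of the fold 1.51 to 4.79, limma BH adjusted p = 0.0150, BY adjusted p = 0.108). The BH call held without any single tumour (BH adjusted p from 0.00693 to 0.0402), and without late 2 the BY call was reached as well (log2FC -1.70, BY adjusted p = 0.04996).

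The normalized counts of IRF4 in early tumours 1 to 5 were 490, 241, 299, 213 and 390. In late tumours 1 to 5 they were 475, 438, 363, 373 and 521. Early 1 and early 5 lay within the late range, and the other early tumours lay below it. The log2FC of IRF4 was -0.46 (SE 0.24, 95% confidence interval -1.004 to 0.077) and missed the threshold (limma BH adjusted p = 0.163), so that a difference of up to 2.01-fold towards late CCH lay within the interval. Its sign turned under quantile normalization (0.056).

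Because the deposited values rest on housekeeping genes, the members were also compared under other scalings. These moved the median log2FC of all tested genes from -0.18 to 0.21 (geometric mean), 0.017 (trimmed mean of M-values, TMM) and 0.21 (quantile). IRF1 and IRF8 were higher in late CCH past the BH threshold under all 4 scalings, with log2FC of -1.70 to -1.29 for IRF1 and -1.43 to -1.005 for IRF8. IRF3 passed under the deposited and TMM scaling (log2FC -0.64 under TMM), and IRF2 under the deposited scaling alone. The median log2FC of the 6 members was -0.26, -0.45 and -0.13 under geometric mean, TMM and quantile scaling. Relative to the panel median in the deposited scaling, the log2FC was -1.53 for IRF1, -1.25 for IRF8, -0.66 for IRF3, -0.29 for IRF4, -0.24 for IRF2 and 0.52 for IRF5.

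**Figure D2:**
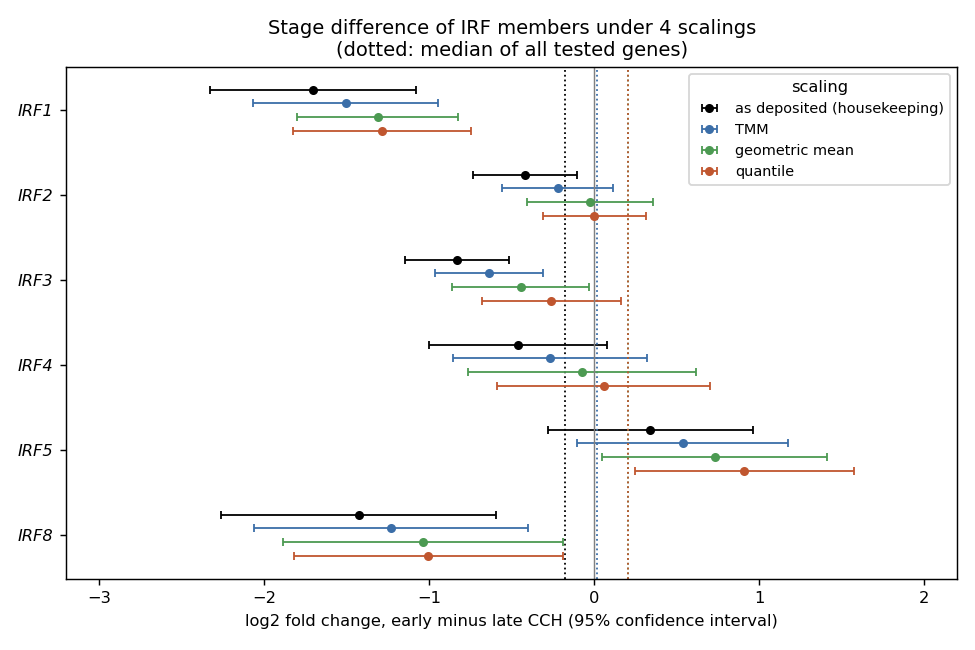
Log2FC (early minus late CCH, horizontal axis) of each IRF gene with its 95% confidence interval under 4 scalings of the same values (n = 5 per stage). Dotted lines are the medians of all tested genes in the colour of the scaling. IRF1 and IRF8 lie left of 0 under each, and IRF2 lies at 0 under geometric mean and quantile scaling.

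The ratio of one member to another within a tumour does not depend on any scaling factor applied to the whole sample. Probes differ in efficiency, so that only the change of such a ratio between the stages, and not the ratio itself, was read. Of 15 pairs, 6 changed past a BH adjusted p of 0.05 over the 15 (adjusted exact two-sided permutation p = 0.0397 for each). IRF1 rose relative to IRF2 in late CCH, with a difference in log2 ratio of -1.28 (early minus late), and the stages did not overlap (log2 ratios from -1.32 to 0.33 in early and from 0.38 to 1.30 in late CCH). IRF1 also rose relative to IRF4 (-1.24, no overlap) and to IRF5 (-2.04). IRF8 rose relative to IRF5 (IRF5 over IRF8 1.77, no overlap), and IRF3 rose relative to IRF5 (-1.17) and to IRF2 (IRF2 over IRF3 0.42). These 6 pairs thus placed IRF1, IRF3 and IRF8 above IRF5, IRF1 above IRF2 and IRF4, and IRF3 above IRF2 in the change towards late CCH.

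The remaining 9 pairs missed the threshold. IRF1 over IRF3 differed by -0.87 (adjusted exact permutation p = 0.0680) and IRF1 over IRF8 by -0.28 (exact permutation p = 0.603, unadjusted). With leave-one-out fits the difference for IRF1 over IRF8 ran from -0.57 to -0.016. Between IRF2 and IRF4 the difference was 0.045 (exact permutation p = 0.841, unadjusted). With 5 tumours against 5 the smallest exact p is 0.00794, and leaving out a tumour lowered the number of pairs past the adjusted threshold to 0 for 7 of 10 tumours (early 1, 3 and 4 and late 1, 2, 4 and 5).

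**Figure D3:**
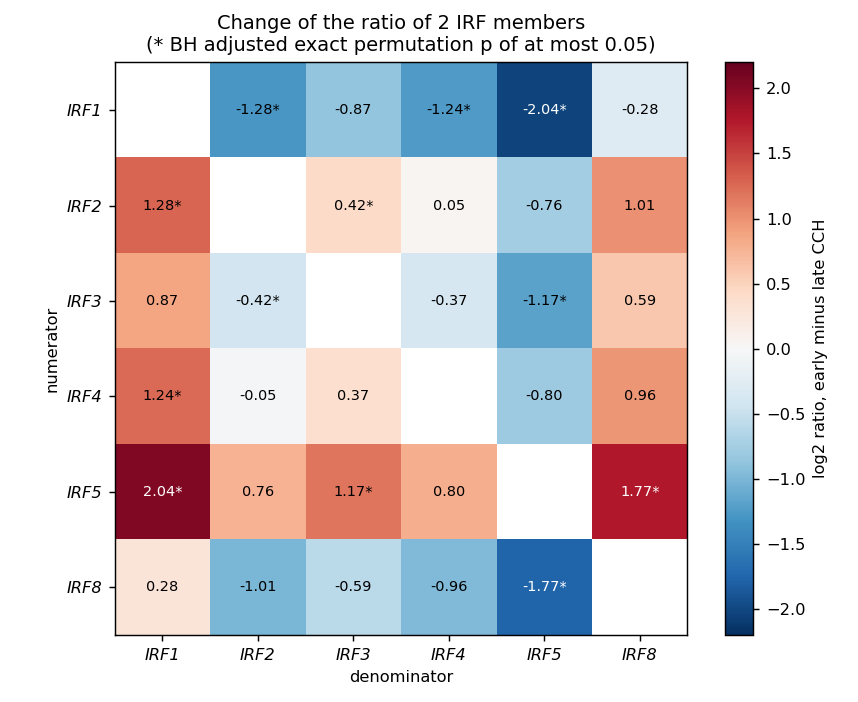
Difference between the stages (early minus late CCH) in the log2 ratio of the row gene to the column gene, for all pairs of IRF genes (n = 5 per stage). Blue means that the row gene rose relative to the column gene in late CCH, and asterisks mark the 6 pairs past the adjusted threshold. The row of IRF1 is negative throughout, from -2.04 against IRF5 to -0.28 against IRF8.

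For each member, the tested genes with the most similar pattern over the 10 tumours were taken, 3 per member, by the root mean square (RMS) difference of log2 values centred on each gene's mean. For IRF1 these were SMAD3, a transcription factor of TGF-β signalling (RMS 0.26), NLRC5, a transactivator of MHC class I genes (0.29), and IL12RB1, a chain of the interleukin 12 receptor (0.32), where the median of all genes was 0.98. For IRF8 they were CD83, a surface protein of activated dendritic cells and lymphocytes (0.39), the cytokine gene LTB (0.41) and the lymphocyte marker CD7 (0.44), against a median of 1.04. IRF8 thus lay further from its nearest gene than IRF1 did, and it also varied more within a stage (SD pooled over the stages 0.65 against 0.47).

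IRF2 lay nearest to LY9 (0.14), STAT3 (0.14) and DDX5 (0.19), and IRF3 nearest to STAT5B (0.20), STAT5A (0.21) and STAT3 (0.21), so that both had STAT genes, which encode cytokine-activated transcription factors, among their nearest. IRF4 lay nearest to ABCF1 (0.25). IRF5 lay nearest to TNKS (0.24), CYLD, a deubiquitinase that restrains NF-κB (0.24), and IKBKB, a kinase that activates it (0.27). For IRF2, IRF3, IRF4 and IRF5 the medians of all genes were 0.60, 0.68, 0.71 and 0.71, and genes with little variation lie near each other on this measure.

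Pathway genes around the family were described by list. Their counts stand beside the 27.3% of all tested genes that were higher in late and the 8.41% higher in early CCH past the BH threshold. These shares hold for the deposited scaling. Under geometric mean, TMM and quantile scaling 345, 311 and 324 of 761 genes passed, and 152, 177 and 144 of them were higher in late CCH. Of 19 tested activators (sensors, adaptors and kinases upstream of IRF3 and IRF5), 3 were higher in late CCH past the BH threshold, 1 was higher in early CCH and 15 missed it, with a median log2FC of -0.23. TRAF3, an adaptor of interferon induction, was at 318 ± 143 in early and 849 ± 226 in late CCH (SD, n = 5 each, log2FC -1.61, limma BH adjusted p = 0.0241). The receptor gene TLR8 had a log2FC of -1.51 (limma BH adjusted p = 0.01996). IKBKE, a kinase of IRF3 related to TBK1, was at 943 ± 236 and 1764 ± 243 (SD, n = 5 each, log2FC -0.92, limma BH adjusted p = 0.00406), whereas IRAK4, a kinase that binds MYD88, was higher in early CCH (log2FC 0.67, limma BH adjusted p = 0.00771). TBK1 (0.35) and MYD88 (0.17) missed the threshold, although TBK1 passed it as higher in early CCH under the 3 other scalings and MYD88 under 2 of them. The median of this list turned positive under geometric mean scaling (0.15, with 3 genes higher in late and 6 in early CCH) and under quantile normalization (0.22, 2 and 8). The median of all tested genes was 0.21 under both.

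Of 10 tested partners of IRFs on DNA and related factors, 6 were higher in late CCH, 0 were higher in early CCH and 4 missed the threshold, with a median log2FC of -0.79. ETS1, a lymphocyte transcription factor, rose from 540 ± 458 in early to 2142 ± 266 in late CCH (SD, n = 5 each, log2FC -2.47, limma BH adjusted p = 0.00831). PRDM1, a repressor required by plasma cells and effector T cells, had a log2FC of -1.88 (limma BH adjusted p = 0.00712). STAT2 (-0.94), which carries interferon receptor signals, was called as well, as were SPIB (-1.54) and NFATC1 (-0.72). SPIB was above background in 2 of 5 early tumours, and BATF (0.23), which missed the threshold, in 0 of 5 early and 2 of 5 late tumours. Under each of the other scalings 4 of the 10 were called, all higher in late CCH. NFATC1 was called under the deposited scaling alone, SPIB under 2 of the 4 scalings and STAT2 under 3.

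The list of interferons, their receptors and the receptor kinases JAK1, JAK2 and TYK2 was split between the stages. Of 10 tested genes, 2 were higher in late and 3 in early CCH (1 and 3 of the 7 genes other than the kinases), and the median log2FC was 0.0062. IFNAR2, a chain of the type I interferon receptor, was higher in late CCH (log2FC -1.08, limma BH adjusted p = 0.0303), as was the receptor kinase gene JAK1 (-0.48). IFNGR1, the ligand-binding chain of the interferon gamma receptor, was higher in every early than in every late tumour (3936 ± 574 against 2012 ± 432, SD, n = 5 each, log2FC 0.98, limma BH adjusted p = 0.00325). IFNA7 (1.14) and IL29L (1.01) were higher in early CCH too. IL29L had a late mean of 32.6, not far above the late background of 21.9. IFNG missed the threshold (log2FC -1.66, limma BH adjusted p = 0.0599). The share of this list higher in late CCH depended on scaling, with 0 genes under geometric mean and quantile scaling and 1 under TMM. Without early 5, late 1 or late 4, 3 of the 10 genes were called in all. Of all 761 genes, 212, 217 and 211 were called in these fits, against 272 with all tumours.

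Targets of interferon and IRFs were described as antiviral genes and as an antigen presentation list, and the difference between these lists was not tested. Of 9 tested antiviral genes, 1 was higher in late CCH, the membrane protein gene BST2 (log2FC -2.40, limma BH adjusted p = 0.0105), and 8 missed the threshold, among them MX1 (-0.99) and ISG15 (-0.68). This count was 2 without early 3, 3 without early 4 and 7 without both, where 251, 249 and 249 of all genes were called. Early 3 and early 4 had the highest antiviral sums of the early tumours (7496 and 8355, against 1843 to 4332 in the others). Leaving them out thus lowers the early level of this list by construction. The fit without both was chosen after the data were seen. The antigen presentation list held 9 tested genes of antigen presentation and guanylate binding proteins and 5 other interferon gamma-inducible genes (CXCL10, CXCL11, IL15, IDO1 and SOCS1). Of these 14, 7 were higher in late CCH (5 of the 9, and IDO1 and CXCL11 of the 5) and 0 in early CCH, with a median log2FC of -0.98. The 4 that also passed the BY and 2-fold thresholds were GBP5 (-2.26), NLRC5 (-1.51), the immunoproteasome subunit gene PSMB10 (-1.17) and the peptide transporter gene TAP1 (-1.05). GBP5 was at 317 ± 184 in early and 1293 ± 161 in late CCH (SD, n = 5 each, limma BH adjusted p = 0.00342, BY adjusted p = 0.0247). TAP1 was at 929 ± 199 and 1890 ± 137 (SD, n = 5 each, BH adjusted p = 0.00195). B2M (-0.062) and CIITA, the transactivator of MHC class II genes (0.26), missed the threshold. Under other scalings 1 to 3 of the 14 genes of this mixed list were called as higher in early CCH beside 5 or 6 in late CCH. CXCL11 was called under the deposited scaling alone.

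**Figure D4:**
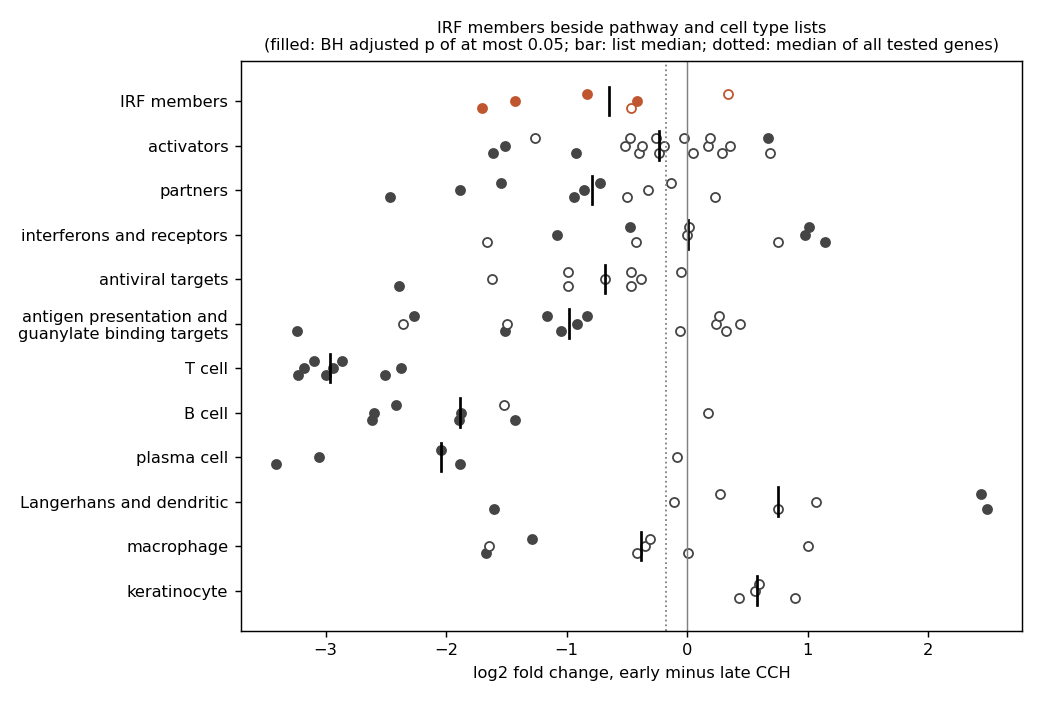
Log2FC (early minus late CCH, horizontal axis) of the 6 IRF genes (orange) and of the tested genes of each pathway and cell type list (grey), with 5 tumours per stage. Filled points passed the BH threshold, bars are list medians, and the dotted line is the median of all tested genes (-0.18). The IRF median (-0.65) lies between those of the activators (-0.23) and the T cell markers (-2.97).

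Markers of cell types moved with stage beside the IRF genes. All 8 T cell markers were higher in late CCH (median log2FC -2.97), and their summed level ran from 454 to 8614 normalized counts in early and from 11767 to 18798 in late CCH. Within early CCH the sums of early 1 to 5 were 454, 2483, 8614, 5798 and 1016, so that early 3 and early 4 were highest. Of the 8 markers, 6 were above background in all 5 early tumours and CD3D and CD6 in 4 of 5, although lymphocytes are not a feature of group 1. Of 5 plasma cell markers, 4 were higher in late CCH (IGHM, IGHG, POU2AF1 and PRDM1, the last also among the partners). The remaining marker, TNFRSF17, missed the threshold (log2FC -0.086, limma BH adjusted p = 0.893), with means of 68.2 in early and 65.9 in late CCH. The 5 markers summed to between 234 and 1806 in early and between 2992 and 11373 in late CCH. B cell markers (6 of 8 higher in late CCH) summed to between 1425 and 2138 in early and between 1562 and 8429 in late CCH, and the defining marker CD79B was below background in all early tumours. The number of T cell markers called fell to 4 without early 5 and to 5 without late 1 or late 4. That of B cell markers fell to 3 without early 1, early 3 or early 5 and to 2 without late 4. Calls over all genes fell from 272 to 212, 217 and 211 without early 5, late 1 and late 4, and to 234 and 251 without early 1 and early 3. B cell calls were also 2 without both early 3 and early 4 (249 of all genes), with age as covariate (208) and with values floored at the highest background (265). They were 1 in male dogs only (133). BLK and CR2 were each called under 2 of 4 scalings.

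Of 7 tested Langerhans and dendritic cell markers, FLT3 (log2FC 2.49) and FCER1A (2.44) were higher in early CCH and XCR1 (-1.60) in late CCH, and the list summed to between 1679 and 5736 in early and between 1397 and 1775 in late CCH. CD207, which defines Langerhans cells, was above background in 1 of 5 early and 1 of 5 late tumours, and CD1A6 in 4 and 5. Of 8 macrophage markers, MSR1 (-1.67) and CD68 (-1.29) were higher in late CCH, whereas MRC1 (1.002) missed the threshold (limma BH adjusted p = 0.0508) and passed it as higher in early CCH under the 3 other scalings. Of 4 keratinocyte markers 0 were called (1 and 2 were higher in early CCH under geometric mean and quantile scaling). Leaving out early 4, early 5, late 1 or late 5 left 1 macrophage marker called, where 249, 212, 217 and 239 of all genes were called. XCR1 and MSR1 were each called under 2 of 4 scalings. The macrophage sums, 3461 to 7933 in early and 4731 to 8864 in late CCH, overlapped, as did the keratinocyte sums of 1321 to 9268 and 1032 to 4842. The part of these cell types in the IRF differences was not tested.

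In the fit without early 3 and early 4, which was chosen after the data were seen, 3 of the 6 IRF genes were called. Each was higher in late CCH. Of all 761 genes, 249 were called in that fit and 198 of them were higher in late CCH. IRF1 then had a log2FC of -1.90, IRF8 of -1.61 (limma BH adjusted p = 0.0294) and IRF3 of -0.84, and IRF2 missed the threshold (-0.49, limma BH adjusted p = 0.0573). With DV200 as a covariate, 0 of the 6 genes passed the BH threshold and 3 had an unadjusted limma p under 0.05, while 45 genes of all 761 passed. The log2FC was then -1.37 for IRF1 (limma BH adjusted p = 0.0882), -1.59 for IRF8 (0.139) and -0.80 for IRF3 (0.0693). Counts in the lists were lower in that fit as well, apart from the keratinocyte list. The T cell, antigen presentation, Langerhans and dendritic cell and macrophage lists had 1 called gene each, and the activators, partners, interferons and receptors, antiviral targets, B cell, plasma cell and keratinocyte lists had 0.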

How the data were processed

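The authors hybridised RNA of 10 FFPE tumours with the probes of the nCounter Canine IO Panel, whose barcodes are counted without amplification. The deposited values are a linear normalized signal, called normalized counts, which the authors obtained in nSolver 4.0 by scaling to positive controls and then to housekeeping genes. The table held 800 genes and 14 control rows (6 positive, 8 negative, unscaled). Gene values were whole multiples of a step per sample (tolerance 0.0051, at least 99.6% of values), which gave the recovered counts used for depth, background and counting error only. Intervals cover sampling of tumours, and counting SDs cover counting error only.

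Stages were compared with limma 3.58.1 in R 4.3.3 (lmFit, eBayes with trend) on log2(normalized count + 1), which understates changes of low genes, with late CCH as baseline and no covariates. A mean of at least 20 was required. Adjusted p-values were computed over all 761 genes (BH and BY, threshold 0.05, the latter with and without a 2-fold limit). Ratios of members were tested by exact two-sided permutation with BH over 15 pairs. Each tumour came from another dog, so that p-values measure the spread between dogs. Samples with the same number did not deviate together (correlations from -0.20 to 0.16), and the numbers were not used as pairs.

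Alternatives covered the pseudocount, filter, scaling, variance model, covariates, extraction batch, sex and leaving out each tumour. A fit without early 3 and early 4 was added after the data were seen. The members and gene lists were chosen with earlier results of these data known. Named genes were all IRF rows, the 3 nearest genes of each, and per pathway list the genes past BY and 2-fold (at most 5) or otherwise the 2 largest past BH. Other genes named were chosen after their values were seen, and some genes that the rule selects are not reported here. The fit was tested on simulated data. Symbols were matched to the RefSeq gene table of UU_Cfam_GSD_1.0. No coordinates or sequences are given, since the panel's design used a different assembly. Plots were made with matplotlib 3.10.9.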

Additional observations from a re-analysis of the deposited data

Results flagged for a closer look

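Of 34 groups of 5 samples checked, 2 held a sample far from the others, where chance gives about 5%. IRF5 in late 3 was at 553.75 normalized counts against 198.74 to 273.28 in the other late tumours, a gap of 0.790 of the whole range. The summed level of B cell markers in late 3 was 8429 normalized counts against 1562 to 3503 in the other late tumours, a gap of 0.717 of the range. Whether both values of the same tumour belong together was not tested.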

How the results depend on the processing

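Each IRF gene was recomputed under 26 alternatives, and IRF1, IRF4, IRF5 and IRF8 kept their direction and their side of the BH threshold under 25 of them, IRF3 under 23 and IRF2 under 10. IRF2 missed the threshold with geometric mean scaling (-0.028), TMM (-0.22), no intensity trend (-0.42, BH adjusted p = 0.0582), DV200 (-0.23), age (-0.45), male dogs only (-0.34) and without early 3 and early 4 (-0.49), and turned to 0.00046 with quantile normalization. Quantile normalization also turned IRF4 (0.056), brought IRF5 past the threshold (0.91) and took IRF3 below it (-0.26), as did geometric mean scaling (-0.44). With DV200, IRF1 (-1.37), IRF3 (-0.80) and IRF8 (-1.59) missed it. The number of IRF genes called was 4 in the reported fit, 2 with geometric mean scaling (where 345 of 761 genes passed, 152 as higher in late CCH), 2 with BY, 1 with BY and 2-fold and 0 with DV200. The cause of these changes was not tested.

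Over all genes, 272 passed BH in the reported fit and 45 to 345 under the alternatives (211 to 269 without a tumour), and 85 passed BY and 2-fold against 0 to 118 (39 to 98 without a tumour). Without a tumour, log2FC ran from -1.87 to -1.48 for IRF1, -0.47 to -0.35 for IRF2, -0.87 to -0.79 for IRF3, -0.63 to -0.33 for IRF4, 0.20 to 0.57 for IRF5 and -1.70 to -1.23 for IRF8. Pairs past BH then ran from 0 to 6, and IRF2 over IRF4 from -0.093 to 0.19. With the replicate block, 228 genes passed and IRF2 did not (-0.42, BH adjusted p = 0.104). Only 1 of 10 tumours was closest to its own number in the other stage. Extraction batch, which was matched to the samples by stage, breed and age (by breed where no age was given), gave as a random block a correlation of -0.14 and 321 genes. The count tools planned as alternatives were not run, because the control rows are not on the scale of the recovered counts.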
